A study of Mus musculus with 4 samples.

Results

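Interferon pathway and interferon-induced genes were followed in mouse thymus, across 63 genes of 10598 in the deposited table. The members were taken by gene symbol alone (interferon receptors, STAT genes, interferon regulatory factors, RNA sensors, and the Oas, Ifit, Ifitm, Ifi, Gbp and immunity-related GTPase families with several single effector genes), leaving out Ifi30 and Isg20l2. No interferon ligand gene was among the members, so ligand levels were not analysed here.

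Each group was 1 RNA sequencing library of thymus from C57BL/6J mice: wild type or CAMKIIgamma-/-, a knockout of Camk2g, the gene of a calcium-activated kinase subunit, without or with N-methyl-N-nitrosourea (MNU), an alkylating mutagen that causes T-cell lymphoma in mice. The mutagen was given once into the peritoneum, at 75 mg/kg, to mice aged 4 to 5 weeks. The labels give 6 months as the time for MNU and for vehicle alike. The series set out to examine how losing the kinase restrains MNU lymphoma, with MNU standing for the malignant state. Neither the number of mice behind a library, nor their sex, nor the make of the knockout allele is given in the labels. With 1 library per group, no difference below has a replicate check, no p-value was computed, and all differences describe these libraries.

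Interferons are secreted proteins that cells release on sensing viral nucleic acid or, for interferon gamma, on lymphocyte activation. They bind paired receptor chains, the receptor-bound kinases phosphorylate STAT proteins, and STAT complexes enter the nucleus. With IRF9 they bind the interferon-stimulated response element (ISRE), and STAT pairs bind the gamma-activated site (GAS), at the promoters of antiviral genes. In the thymus, medullary epithelium is a known source of steady low interferon beta, and mature thymocytes and dendritic cells carry induced transcripts without infection.

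The values are normalised counts. They summed to between 32911362 and 34836257 per library, and the highest library of every member reached at least 324. All 63 members passed the filter (mean of 10 or more across libraries), as did 10587 genes in all. Camk2g stood at 2749 (wild type), 3173 (wild type, MNU), 489 (knockout) and 29.7 (knockout, MNU). Some of the targeted transcript was thus present in the library labelled knockout without MNU. Whether the knockout thymus itself made that transcript was not tested. In that library 42 genes that are no members, and whose level in wild type with MNU was more than 20-fold that in the untreated wild-type and the MNU knockout library, lay at a median share of 15.4% of their wild-type MNU level (lowest 13.2%, highest 21.4%). Results that use that library are therefore also given with this share subtracted, or from knockout with MNU against wild type without MNU.

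Interferon members were lower in the wild-type thymus with MNU and near or above their untreated level in both knockout libraries. Counting differences of 2-fold or more on a log2(value + 10) scale, 42 of 63 members were lower and 0 higher in wild type with MNU than without, where 14.2% of all genes kept were lower and 7.14% higher. The median log2 difference was -1.70 over the members and -0.01 over all genes. At least 4-fold, 25 members were lower against 6.48% of all genes, and at least 8-fold, 12 members against 3.35%. Wild type with MNU was the lowest of the 4 libraries for 58 members, which held for 43.3% of all genes. The exceptions were Ifngr1, Irf4, Ifit2, Ifitm2 and Ifi205. Summed over the members, normalised counts were 175100.4 without and 89549.6 with MNU in wild type, and 181764 and 195204 in the knockout. In tissue libraries such as these, fewer cells of a type and less RNA per cell cannot be told apart.

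**Figure D1:**
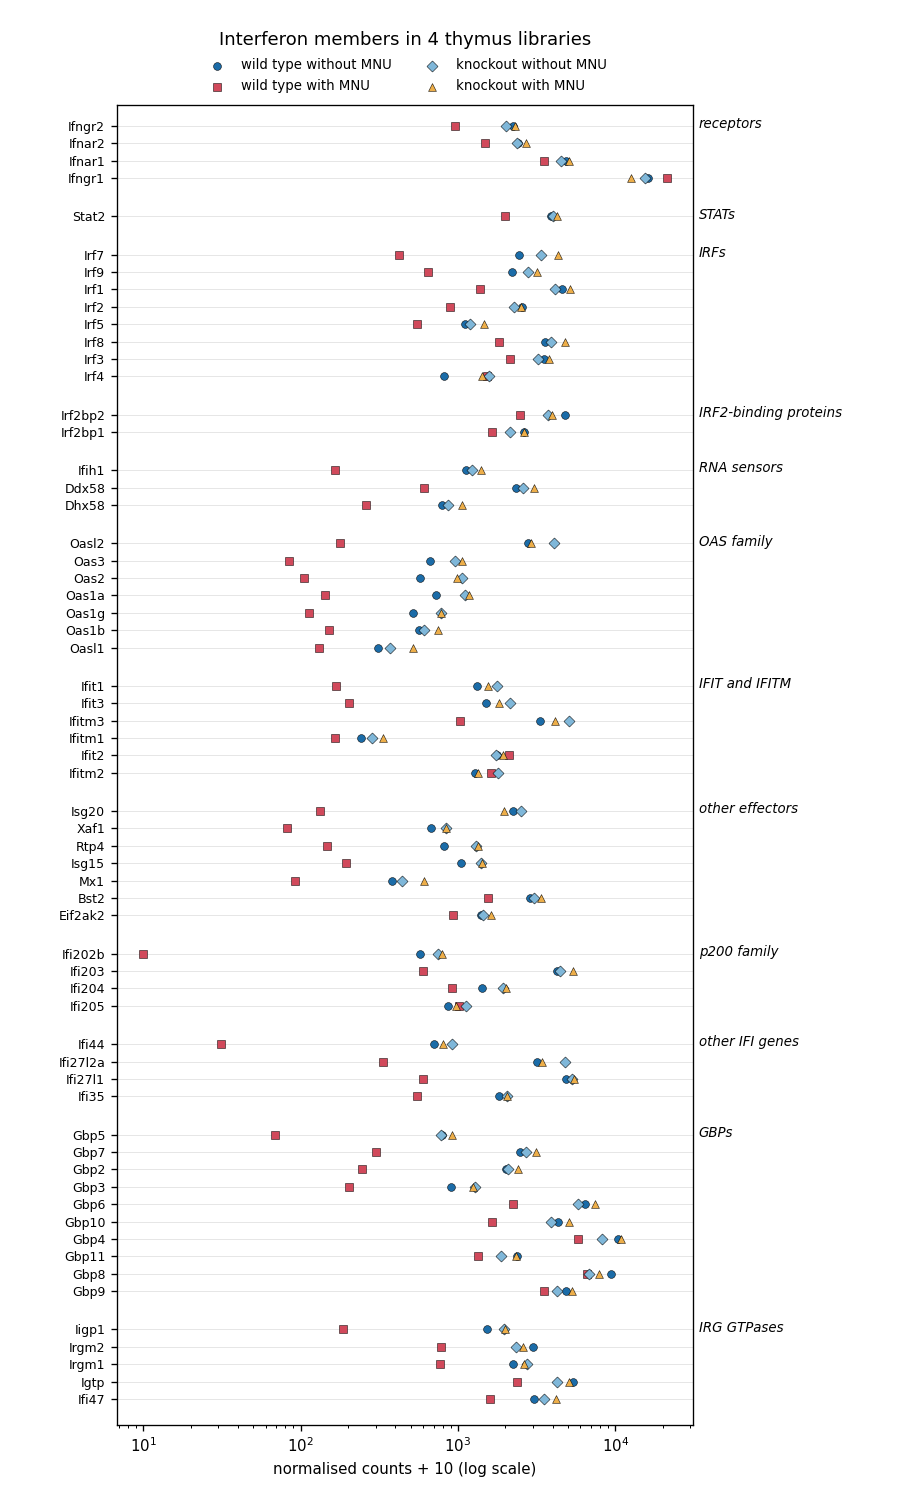
Normalised counts plus 10 (log scale) of 61 members in the 4 libraries, grouped by role; each symbol is 1 library, and no error can be drawn with 1 library per group. The squares of wild type with MNU lie to the left of the other 3 libraries in 56 rows, and Ifi202b, listed at 0 there, sits at the left edge.

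Receptor genes differed least between the wild-type libraries. Ifngr1, the ligand-binding chain of the interferon gamma receptor, was at 16206 and 21242 in wild type (without, then with MNU) and at 15332 and 12589.7 in the knockout, so that it was highest where most members were lowest. Its partner chain Ifngr2 had values of 2220.3, 944, 2010.5 and 2305 in that order of libraries, which is kept below, 2.35-fold lower with MNU in wild type. The type I receptor chains were within 2-fold: Ifnar1 was at 4844, 3531, 4505 and 5034. Ifnar2 was at 2391, 1483, 2356 and 2697. Of the 4 receptor genes, 1 was at least 2-fold lower (median log2 difference -0.57). Over all genes 14.2% were, and with so few genes the count is not far from that share. The same 14.2% stands beside the 2-fold counts by role below.

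Stat2, which carries the type I receptor signal, differed by close to 2-fold in wild type. It was at 3918 without and 1968 with MNU in wild type and at 4022 and 4227 in the knockout. Its log2 difference in wild type was -0.99, just inside the 2-fold line, and that in the knockout 0.07.

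Interferon regulatory factors (IRFs) are transcription factors that bind ISRE-like sites, some of them to start and some to sustain the response, and others with roles in lymphoid or myeloid cells. In wild type with MNU 5 of the 8 described here were at least 2-fold lower and 0 higher (median log2 difference -1.26). Irf7, which amplifies type I interferon production, was at 2435, 411, 3361 and 4313 in the 4 libraries. Its knockout MNU value was 1.77-fold above wild type without MNU and 10.5-fold above wild type with MNU. Irf9, a DNA-binding partner of STAT2, followed the same order at 2206, 632, 2790.0 and 3163. Irf1, an early target of interferon gamma, was 3.31-fold lower with MNU in wild type (4546 against 1372) and was at 4151 and 5133 in the knockout. Irf2, which opposes Irf1 at shared sites, was 2.89-fold lower (2547 against 882), with 2259 and 2514 in the knockout.

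Some IRFs are linked to particular cell types. Irf8, needed for dendritic cells and monocytes, was at 3571, 1824, 3867 and 4764 in the same library order as before, and Irf5, a myeloid and B cell factor, at 1096, 540.0, 1191 and 1446. Irf3, the factor activated directly by nucleic acid sensing, was within 2-fold (3509, 2139, 3219 and 3808). Irf4, a factor of activated lymphocytes and plasma cells, had a different order: 808 in wild type without MNU, against 1514, 1556 and 1413 in the other 3. Its log2 difference with MNU was 0.90 in wild type and -0.14 in the knockout. Irf2bp1 and Irf2bp2, corepressors that bind IRF2 and are not themselves IRFs, were within 2-fold in wild type with MNU, with log2 differences of -0.68 and -0.95.

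The cytoplasmic RNA sensors were lower in wild type with MNU, 3 of 3. Ifih1, which encodes MDA5, a sensor of long double-stranded RNA, was at 1108 without and 155 with MNU, 7.14-fold lower, and at 1226 and 1385 in the knockout. Ddx58, which encodes RIG-I, was 3.89-fold lower (2331 against 599), with 2565 and 3023 in the knockout. Dhx58, which encodes the regulator LGP2, was 3.15-fold lower (785 against 249), with 852 and 1055 in the knockout. The 3 knockout MNU values were each above all other libraries.

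Several genes of the oligoadenylate synthetase (OAS) family encode enzymes that make the small second messenger that activates RNase L. All OAS family members were lower in wild type with MNU: 7 of 7 at least 2-fold and 5 of 7 at least 4-fold (median log2 difference -2.34). Oasl2, an OAS-like gene, went from 2782 without to 169 with MNU, 16.5-fold lower, and was at 4064 and 2884 in the knockout. Oas3 was at 652 and 74.2 in wild type and at 945 and 1045 in the knockout. Oas2 was at 560.3 and 94.7 in wild type and at 1051 and 977 in the knockout. For all 7 genes both knockout libraries were above both wild-type libraries, an order that held for 15.3% of all genes. Oas1a (711, 133, 1099 and 1161) and Oas1g (512, 104, 775 and 776) are close copies, and reads could be split between them. Oas1b was at 558, 142, 600.0 and 742, and Oasl1 at 301, 122, 360.0 and 507, 3.93-fold and 2.48-fold lower with MNU in wild type.

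The IFIT and IFITM families split within their own gene clusters. Ifit1 and Ifit3, whose products bind viral RNA, were 8.20-fold and 7.75-fold lower with MNU in wild type. Ifit1 was at 1303, 159, 1764 and 1554 in the 4 libraries, and Ifit3 at 1498, 193, 2121 and 1815. Ifit2 of the same gene cluster was at 1765, 2098, 1737 and 1924, so that wild type with MNU was its highest library. Ifitm3, a membrane protein that blocks virus entry, was at 3319, 1014, 5044 and 4148, whereas its family member Ifitm2 was at 1269, 1623, 1796 and 1333. Ifitm1 was within 2-fold, at 233 and 156 in wild type and 273 and 324 in the knockout. Of the 6 genes 3 were at least 2-fold lower.

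Other antiviral effectors were lower in 5 of 7 cases. Isg20, an exonuclease that degrades viral RNA, was at 2218 without and 124 with MNU in wild type, 18.0-fold lower, and at 2488 and 1959 in the knockout. Isg15, a ubiquitin-like modifier, was 5.62-fold lower (1043 against 186), with 1391 and 1409.6 in the knockout. Xaf1, a pro-apoptotic interferon target, was 9.26-fold lower (661 against 71.4), with 828 and 832 in the knockout. These 3 genes kept the knockout MNU value within 1.3-fold of the knockout value without MNU. Rtp4 was at 808, 137, 1285 and 1329 in the same library order, and Mx1, a dynamin-like antiviral GTPase, at 369, 82.6, 432 and 597. The 2 others were within 2-fold: the virion tether Bst2 (log2 difference -0.87) and Eif2ak2, which encodes the RNA-dependent kinase PKR (-0.59).

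Of the p200 family, nuclear proteins several of which bind DNA, 2 of 4 were at least 2-fold lower. Ifi202b was at 565 in wild type without MNU, listed at 0 in wild type with MNU, and at 738 and 787 in the knockout. Ifi203 was 7.15-fold lower (4240.2 against 593) and was at 4428 and 5381 in the knockout. Ifi204 was at 1405 and 912 in wild type and at 1913 and 1997 in the knockout, within 2-fold in each genotype. Ifi205 was at 852, 1009, 1116 and 966, with wild type without MNU as its lowest library. Family members resemble each other in sequence, and the sources used here do not say how shared reads were counted.

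The 4 remaining Ifi genes were all lower, by a median log2 difference of -3.14. Ifi44 had the largest fold difference among members with signal in every library: it was at 698 without and 21.3 with MNU in wild type, 32.8-fold lower, against 911 and 791 in the knockout. Ifi27l2a was 9.77-fold lower (3160.3 against 323), with 4764 and 3409 in the knockout, and Ifi27l1 was 8.26-fold lower (4842 against 586), with 5260.4 and 5487 in the knockout. Ifi35, at 1811, 538, 2033 and 2042, was 3.37-fold lower.

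Guanylate-binding protein (GBP) genes encode GTPases that attack pathogen vacuoles and are strongly induced by interferon gamma. They form a pair of blocks on different chromosomes in RefSeq, and the blocks did not overlap in the wild-type MNU difference. Gbp2, Gbp3, Gbp5 and Gbp7, in the first block, kept between 7.46% and 21.7% of their level without MNU (4 of 4 at least 4-fold lower, median log2 difference -3.04). Gbp4, Gbp6, Gbp8, Gbp9, Gbp10 and Gbp11, in the second, kept between 35.1% and 72.8% (2 of 6 at least 2-fold lower, median -0.85). Gbp5 was at 783, 58.4, 769 and 907 in the 4 libraries. Gbp2 was at 2012, 236, 2057 and 2381 and Gbp7 at 2485, 293, 2684 and 3119.6, so that wild type with MNU was far below 3 similar libraries for each. Gbp3 was at 893, 194, 1272 and 1229. Of the second block, Gbp10 was at 4319.6, 1630.3, 3895 and 5072. Gbp6 was at 6384, 2239, 5799 and 7439, and Gbp8 at 9398, 6594, 6787 and 7856, with the knockout library without MNU close to wild type with MNU. The blocks also differed in direction without MNU: in the knockout all 6 genes of the second block were lower than in wild type (median log2 difference -0.26), while 3 of 4 in the first were higher (0.07), all of them within 2-fold. With the wild-type MNU share subtracted Gbp6 had a log2 difference of 0.01, and the others of the second block lay at or below 0. Genes of the second block resemble each other closely, and reads could be shared among them.

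**Figure D2:**
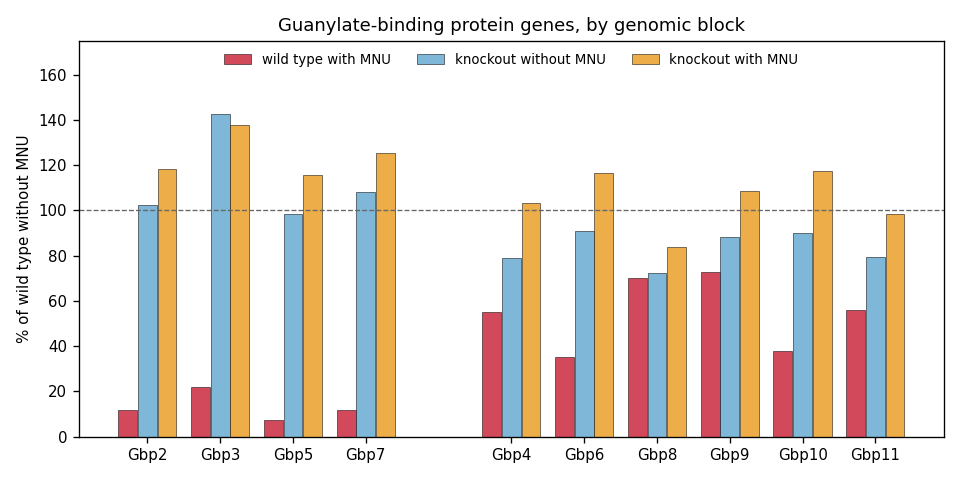
Level of each guanylate-binding protein gene as a percentage of wild type without MNU (dashed line, 100%), in the other 3 libraries; the first 4 genes form 1 genomic block and the last 6 another. The bars of wild type with MNU reach at most 21.7% in the first block and range from 35.1% to 72.8% in the second.

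Immunity-related GTPases (IRGs), which act with GBPs on pathogen vacuoles, were at least 2-fold lower in 4 of 5 cases (median log2 difference -1.54). Iigp1 was at 1517 without and 176 with MNU in wild type, 8.64-fold lower, and at 1952 and 1972 in the knockout. Irgm2 was 3.87-fold lower (2972 against 769) and Irgm1 2.94-fold lower (2230.2 against 759). Igtp was 2.26-fold lower (5345 against 2370.2), and Ifi47 was within 2-fold (3023 against 1581). With MNU the knockout values were 1972 for Iigp1, 2598 for Irgm2, 2635 for Irgm1, 5033 for Igtp and 4182 for Ifi47, each above its wild-type MNU value. Without MNU, Irgm2 (2332) and Igtp (4272) were lower in the knockout than in wild type, whereas Irgm1 (2727) and Ifi47 (3522) were higher.

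Promoter sequence was examined because so many members moved together. RefSeq promoter windows (GRCm38.p6, 250 bases before to 50 after each annotated start) matched 46 of the 63 members by symbol, or by an older symbol. Those without an entry included Dhx58, Gbp4, Gbp6, Gbp8, Gbp9, Gbp10, Gbp11, Ifi204, Ifi27l1, Ifi27l2a, Iigp1, Mx1, Oas1b, Oas2 and Rtp4. The ISRE core (GAAA, any 2 bases, GAAA) was searched on both strands with overlapping matches allowed. It was in a window of 23 of the 46, and of 3.68% of the genes kept that are no members. Counted by single windows, it was in 3.44% of all 32851. The stretches below come from genes named above and run 20 bases to either side of the matches, cut at the start site. Capitals mark the core on either strand. Read from the opposite strand it is TTTC, any 2 bases, TTTC.

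The first block of GBP genes shares the core close to the start, except Gbp5, where it lies farther upstream.
Gbp2 (chr3:142620584-142620633, plus strand): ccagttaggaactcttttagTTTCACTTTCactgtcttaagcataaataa
Gbp3 (chr3:142559979-142560034, plus strand): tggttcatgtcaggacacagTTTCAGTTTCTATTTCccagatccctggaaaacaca
Gbp5 (chr3:142496749-142496798, plus strand): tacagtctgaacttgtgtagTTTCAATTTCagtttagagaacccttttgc
Gbp7 (chr3:142530263-142530312, plus strand): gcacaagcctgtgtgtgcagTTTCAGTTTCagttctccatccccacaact

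Ifit1 and Ifit3 each hold the core at 2 places, and neither of the windows of Ifit2 holds it. The windows depend on the annotated start, and a core outside them would be missed. Whether the core bears on the levels of these genes was not tested.
Ifit1 (chr19:34640765-34640833, plus strand): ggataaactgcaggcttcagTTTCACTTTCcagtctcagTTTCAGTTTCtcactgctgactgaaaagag
Ifit3 (chr19:34583353-34583436, plus strand): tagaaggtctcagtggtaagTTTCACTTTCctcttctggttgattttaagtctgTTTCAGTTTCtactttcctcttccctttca

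Isg15 and Oas1a show overlapping cores, and Ifitm2, which was 1.28-fold higher in wild type with MNU, holds the core as well.
Isg15 (chr4:156200855-156200916, minus strand): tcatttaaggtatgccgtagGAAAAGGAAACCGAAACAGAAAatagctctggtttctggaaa
Oas1a (chr5:120907526-120907565, minus strand): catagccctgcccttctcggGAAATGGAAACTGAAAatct
Ifitm2 (chr7:140955978-140956027, minus strand): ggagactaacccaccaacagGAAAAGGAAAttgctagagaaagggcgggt

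Among the matched members, those with the core had a median log2 difference of -2.15 with MNU in wild type (18 of 23 at least 2-fold lower), and those without it one of -1.01 (12 of 23). These groups also differed in role. The receptors, the IRF2-binding proteins and every matched IRF except Irf2 lacked the core, and receptors differed least of all roles. Whether the gap goes with the core or with role was not tested. Over all genes kept with a window, the core alone went with little: the median was -0.05 for 327 genes with it and -0.01 for 7985 without it, and 22.3% and 13.3% were at least 2-fold lower. With the members left out the medians were 0.02 and -0.01, and 18.1% and 13.2% were lower. The 4 matched members with the largest differences, Ifi202b, Ifi44, Isg20 and Oasl2 (log2 differences of -5.85, -4.50, -4.06 and -3.96), all lack the core in their windows. The longer ISRE (the core followed by CT), every match of which contains the core, was in 0.271% of all windows and marked 37 genes with a median of -1.70, of which 21 were at least 2-fold lower and 3 higher. Of these 37, 12 were members. The other 25 had a median of -0.45, with 10 of them lower, against 13.3% of the 8241 other genes that are no members and lack it. The GAS core TTCNNNGAA was in 8.30% of all windows. By gene it was in those of 7.88% of the genes kept that are no members, and of 18 matched members. The median of these 18, -1.61, was close to the -1.86 of the 28 without it. These letters are a description of the windows, and no binding was measured.

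**Figure D3:**
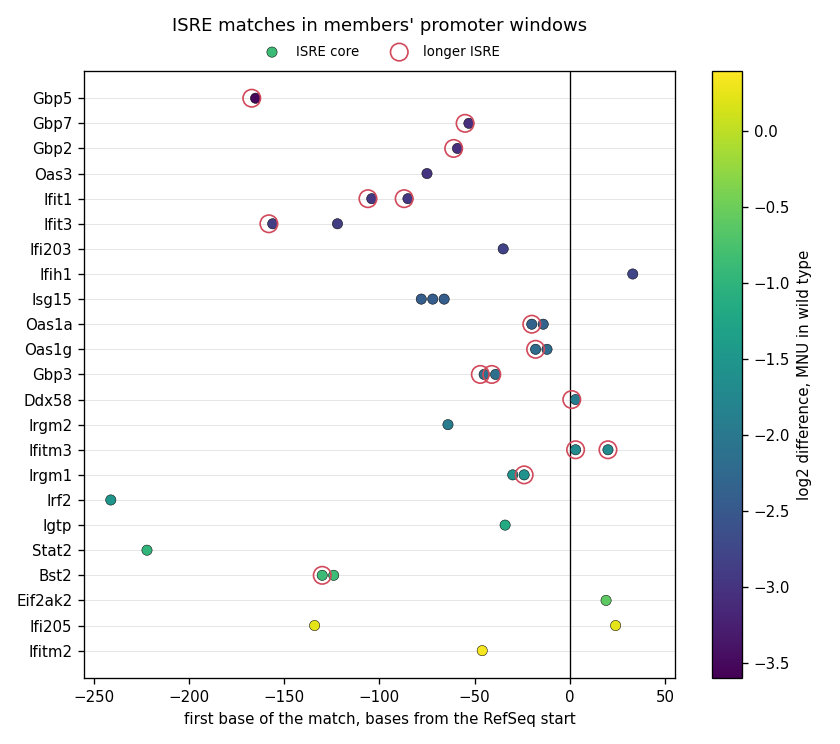
Position of ISRE matches in the promoter windows of the 23 members that hold the core: the x axis gives the first base of a match from the RefSeq start (0), filled points are the core coloured by the log2 difference with MNU in wild type, and open circles mark the longer ISRE. Ifitm2 and Ifi205 at the bottom carry the core without a lower level, and the 12 members with open circles include Gbp2, Gbp3, Gbp5 and Gbp7.

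In the knockout, MNU went with little difference. Of 63 members 0 were at least 2-fold lower and 0 higher, where 2.95% of all genes were lower and 0.331% higher. No count model could be applied to these values, so the counts of 0 rest on the 2-fold rule alone. The counts of 0 are also close to the shares over all genes, so they do not set the members apart. The median log2 difference was 0.15 over the members, with 48 above and 15 below 0, against 0.01 over all genes. Oasl1 (360.0 without, 507 with MNU) and Mx1 (432 and 597) were the highest relative to the library without MNU, at 1.41-fold and 1.38-fold, and Oasl2 (4064 and 2884) and Ifi27l2a (4764 and 3409) the lowest, 1.41-fold and 1.40-fold below it. With the wild-type MNU share subtracted from the knockout library without MNU the median was 0.00 (-0.0042), and still 0 members were at least 2-fold lower or higher. By role the median as deposited ranged from -0.20 for IFIT and IFITM genes to 0.27 for GBP genes.

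The difference between the genotypes in the MNU change was at least 4-fold, higher in the knockout, for 29 of 63 members, against 6.62% of all genes. Its median was 1.87 on the log2 scale over the members and 0.03 over all genes, and 1.71 over the members with the share subtracted. Among the roles it was largest for the 4 remaining Ifi genes (2.93), the other effectors (2.49) and the OAS genes (2.34) and smallest for the receptors (0.75). The direct comparison of knockout with wild type after MNU shares the wild-type MNU library with the wild-type comparison. There 48 of 63 members were at least 2-fold higher in the knockout and 0 lower, where 15.0% of all genes were higher and 7.37% lower.

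**Figure D4:**
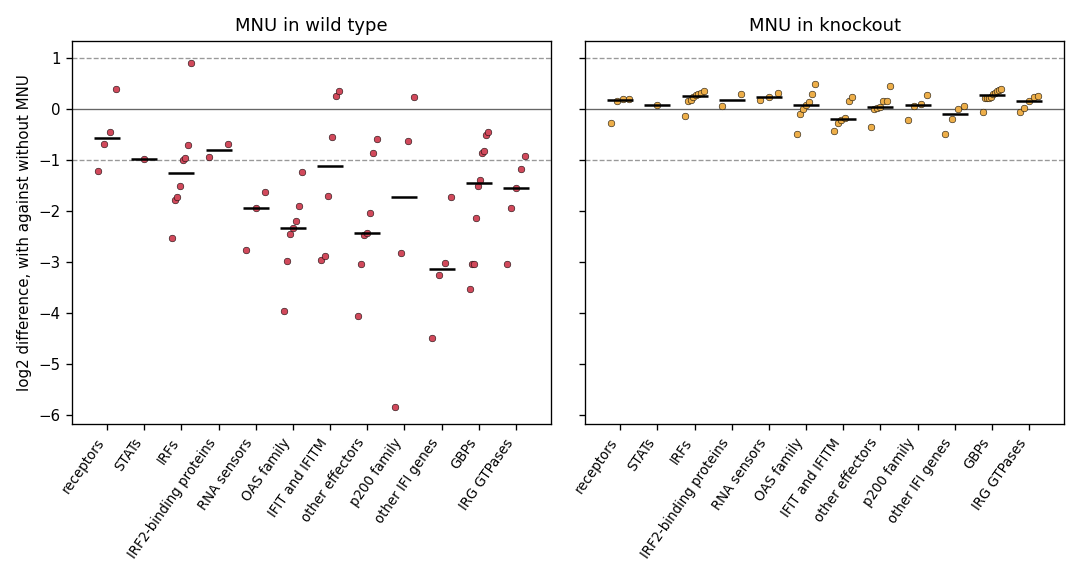
Log2 difference with against without MNU, on the log2(value + 10) scale, for 61 members by role, in wild type and in knockout; points are genes, bars are medians over the genes plotted, and dashed lines mark 2-fold. Wild type spreads from -5.85 to 0.90, while all knockout points lie between the dashed lines.

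Each knockout library was also set against the untreated wild type. Against wild type without MNU, 0 of 63 members passed 2-fold in either knockout library. Without MNU 2.59% of all genes were at least 2-fold higher in the knockout and 0.359% lower, and with MNU the shares were 1.57% and 1.11%. The counts of 0 are close to those shares and do not set the members apart. With the share subtracted from the knockout library without MNU, 1 member passed 2-fold, Oas2, with a log2 difference of 1.11.

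At a smaller difference of 1.25-fold, a line chosen after the values were seen, 27 of 63 members were higher in knockout with MNU than in wild type without MNU and 1 was lower (Ifngr1), where 8.92% of all genes were higher and 7.20% lower. In knockout without MNU 22 members were higher and 6 lower, where 11.5% and 5.94% of all genes were. Both comparisons share the wild-type library without MNU. The median log2 difference was 0.24 with MNU and 0.14 without MNU (0.33 with the share subtracted).

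OAS genes made up 6 of the 27 and 5 of the 22. Irf7 was 1.77-fold and 1.38-fold higher in knockout with and without MNU than in wild type without MNU, Oas2 1.74-fold and 1.88-fold, Rtp4 1.64-fold and 1.59-fold, and Irf4 1.75-fold and 1.93-fold. Both knockout libraries were above both wild-type libraries for 40 of 63 members, an order that 15.3% of all genes had and that the low wild-type MNU library favours.

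Of 12 signalling genes of the pathway outside the symbol rule, 2 were at least 2-fold lower and 1 higher in wild type with MNU (median log2 difference -0.24). These counts are close to the shares over all genes, 14.2% lower and 7.14% higher, so the list does not stand apart from them. Socs1, a feedback inhibitor of receptor-bound kinases, was at 5006, 1644, 3253 and 3456 in the 4 libraries. Socs3, an inhibitor mainly of cytokine receptors that use gp130, was highest in wild type with MNU, at 999.6, 2461, 1249 and 1159. The receptor kinase Tyk2 was 2.05-fold lower, while Jak1 and Jak2 were 1.13-fold and 1.23-fold lower. Usp18, which removes ISG15 from proteins and restrains the type I receptor, was at 1193 without and 1985 with MNU in wild type, 1.66-fold higher, and at 1952 and 1734 in the knockout.

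Of 17 measured genes of nucleic acid sensing, 4 were at least 2-fold lower in wild type with MNU and 0 higher (median -0.20), where 14.2% of all genes were lower and 7.14% higher. With so few genes the count is not far from those shares. The 4 were Nlrc5, the activator of MHC class I genes (2809 against 378), Samhd1, which degrades deoxynucleotides (3575 against 819), Zbp1, a sensor of Z-form nucleic acid (1624 against 569.7), and the kinase gene Ikbke (2979.9 against 1236). The adaptor and kinase genes Mavs, Tbk1, Myd88 and Traf3 differed by 1.23-fold or less. Tmem173, which encodes STING, was 1.24-fold higher with MNU in wild type.

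Of 62 measured induced genes outside the rule, 31 were at least 2-fold lower in wild type with MNU and 0 higher, with a median of -0.997, against the same 14.2% and 7.14% of all genes. The T cell chemoattractant Cxcl11 was at 389 without MNU and listed at 0 with it, and Cxcl10 was 29.5-fold lower. Cd69, an early activation receptor, was 47.5-fold lower, and Ms4a4b, a T cell membrane protein, 37.4-fold lower. In the antigen-processing part of this list Tapbp was 3.37-fold and Psmb10 2.76-fold lower, whereas B2m was 1.15-fold and Tap2 1.52-fold higher. In the knockout 1 of the 62 was at least 2-fold lower with MNU (Trim30d) and 0 higher. Over all genes 2.95% were lower and 0.331% higher there, so these counts are close to those shares.

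Marker transcripts of cell types also differed between the libraries. Beside the counts below, 14.2% of all genes were at least 2-fold lower in wild type with MNU and 7.14% higher. In wild type with MNU, dendritic cell markers summed to 8155 against 128925 without MNU (10 of 11 measured at least 2-fold lower, none at 0, and Ccl22 at 3.61), and thymic epithelial markers to 5697 against 105122 (16 of 19 lower). Foxn1 and Fezf2, defining genes of thymic epithelium, were listed at 0 there, and 8 of the 19 were under 10. The epithelial list was not uniform: Epcam (1389 against 784), Cldn4 (815 against 457) and Ly75 (4774 against 1319) kept more of their level, and the adhesion gene Cdh1 was 1.41-fold higher (2028 against 2855). Mature T cell markers summed to 60607 against 123195 (8 of 11 lower, 1 higher), double-positive thymocyte markers to 165844 against 396554 (7 of 12 lower, 1 higher), and plasmacytoid dendritic cell markers to 26131 against 44135 (5 of 9 lower, 1 higher). A single gene dominated the plasmacytoid sum in each wild-type library: Ccr9, also in the double-positive thymocyte list, gave 31047 without MNU (5148 with it), and Ly6d gave 17361 with MNU (6478 without it). Likewise Tcf7 gave most of the mature T cell sum, 96028 without MNU and 46392 with it. The other genes of that list ranged from 165-fold lower (Cd40lg, at 1.75 with MNU) to 2.42-fold higher (Cd44). B cell markers summed to 2954 against 5002 (8 of 11 lower, 1 higher) and NK cell markers to 2913 against 3818 (4 of 7 lower, 1 higher).

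By contrast, macrophage and monocyte markers summed to 57558 against 36218 (4 of 13 higher, 2 lower), and endothelial and stromal markers to 57180 against 23337 (4 of 8 higher, 0 lower). Over all genes 7.14% were higher and 14.2% lower. The macrophage and monocyte list was not uniform. Marco, Mrc1, Cd68 and C1qb were the 4 higher, while Ly6c2 (1754 without, 486 with MNU) and Ccr2 (570 without, 103 with MNU) were lower. In knockout with MNU, where many members were slightly above wild type without MNU, B cell markers summed to 255% of that library, macrophage and monocyte markers to 194%, NK cell markers to 179% and dendritic cell markers to 135%. In knockout without MNU the same lists stood at 153%, 157%, 195% and 118%. The other lists were not raised alike. With MNU in the knockout, thymic epithelial markers stood at 80.7% and double-positive thymocyte markers at 87.0%. Endothelial and stromal markers stood at 91.1%, mature T cell markers at 94.5% and plasmacytoid markers at 114%. Without MNU these lists stood, in that order, at 106%, 69.4%, 144%, 79.5% and 95.5%. Ms4a4b is in both the induced and the mature T cell list, Ccr7 in the dendritic and the mature T cell list, Spib in the plasmacytoid and the B cell list, Tlr7 in the sensing and the plasmacytoid list, and Cd74 and the H2 genes of the dendritic cell list are themselves inducible by interferon gamma. The part of these markers in the interferon differences was not tested.

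**Figure D5:**
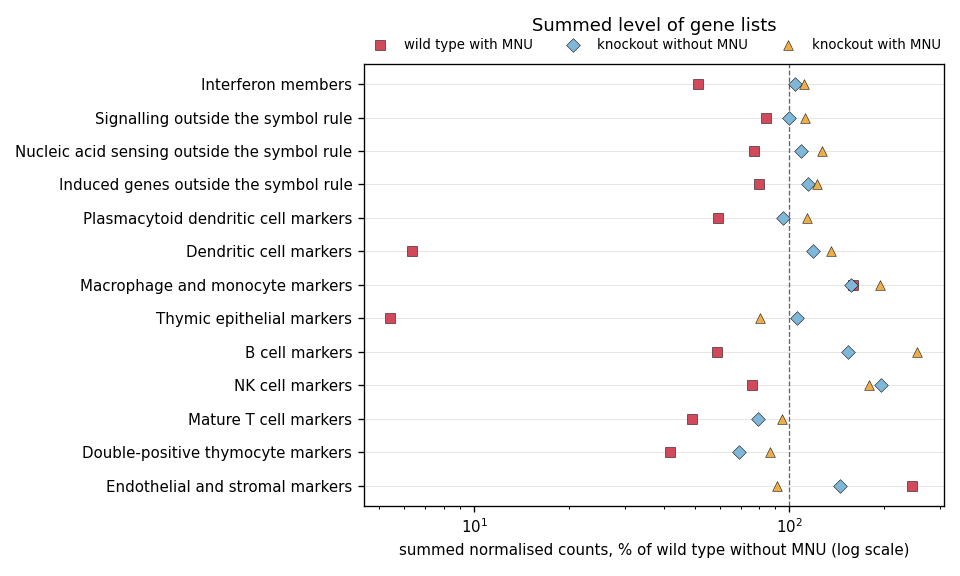
Summed normalised counts of each gene list as a percentage of wild type without MNU (dashed line), on a log axis; each symbol is 1 library. Interferon members stood at 51.1% in wild type with MNU, dendritic and thymic epithelial markers at 6.33% and 5.42%, and endothelial and stromal markers at 245%. Cd74 and the H2 genes gave most of the dendritic sum without MNU.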

How the data were processed

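RNA was sequenced from thymus, 1 library for each of 4 groups. The deposited values are a signal per gene, named normalised counts per the file headers. Per the submitters' processing notes, TopHat2 2.0.8b and edgeR were among the tools and mm9 was the build, with no role stated. Counting tool, annotation, gene filter and normalisation method: not given in the sources used here. Values were not whole, and whole reads could not be recovered in all columns, so no count model was applied and no counting interval was computed.

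Groups came from the labels. Values were used as deposited, genes with a mean of at least 10 were kept (10587 of 10598), and differences were taken on the log2(value + 10) scale, which understates changes of low genes. Fold differences of single genes are ratios of the values themselves. A gene counted as higher or lower at 2-fold. The 4-fold, 8-fold and 1.25-fold lines are descriptions. Counts and medians over the members include 2 members that are not reported singly here. Members, lists and alternatives were chosen with earlier results of these data known. Named are the receptors, STATs, IRFs and members past 2-fold whose highest library reached 100, and, outside the rule, list genes with large wild-type differences; Jak1, Jak2, Usp18, Mavs, Tbk1, Myd88, Traf3, Tmem173, Tapbp, Psmb10, B2m, Tap2, Trim30d, Ifi47, the single marker genes and the members within 2-fold were added after their values were seen.

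The subtracted share of wild type with MNU was the median over 42 genes above 1000 units, and negative values after subtraction were set to 0. The calls, the share and the motif search were tested on simulated data. Promoter windows are from RefSeq, GRCm38.p6, and no coordinate of the deposited table was used. Of the genes kept, 8312 matched a window. Python 3.11.15, pandas 2.3.3 and numpy 2.4.6 were used. Alternatives were 2 other pseudocounts, no filter and a filter of 100, median-of-ratios and upper-quartile scaling, a 4-fold threshold, the members without the IRF2-binding proteins, and the knockout library without MNU with the share subtracted or left out. For promoters they were the longer motif and leaving out the members.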

Additional observations from a re-analysis of the deposited data

Results flagged for a closer look

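With 1 library per group, the difference between the genotypes in the MNU change was not tested. It was singled out where MNU went with a level at least 2-fold lower in wild type and with a higher level in the knockout, and where the changes were 3 or more apart on the log2 scale. The median over the 63 members, lower in wild type and slightly higher in the knockout, was 1.87 apart.

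Ifi202b had the largest gap, at 5.94, and was listed at 0 in wild type with MNU, so the size of its gap depends on the pseudocount. Among the GBP genes Gbp5 (3.77), Gbp7 (3.26) and Gbp2 (3.25) met the condition, all of them from the same genomic block. Oas3 (3.12), Ifi203 (3.10), Ifi27l1 (3.09), Iigp1 (3.06) and Xaf1 (3.05) were the others. With the wild-type MNU share subtracted from the knockout library without MNU, the knockout MNU change was -0.15 for Ifi202b and Ifi27l1, -0.20 for Iigp1, -0.21 for Xaf1, -0.08 for Oas3 and -0.0042 for Gbp2, so that for these 6 genes the directions were no longer opposite. The same held for the median over the members, which is the value of Gbp2. For Ifi203 (0.07), Gbp5 (0.01) and Gbp7 (0.00067) they still were, by little. As deposited, the knockout change of Xaf1 was itself 0.0071.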

How the results depend on the processing

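No paired analysis was possible because each group had 1 library and the labels give no replicate numbers. Of 141 recomputed values, 134 stayed close to those reported and 7 moved. Close meant a count within 1.5 times or a median within 0.1 on the log2 scale. Many of these values could not move, so the 134 is no measure of robustness. The lowest member mean was 246, so the filters could not alter a member value, and counts of 0 at 2-fold remain 0 at 4-fold. Leaving out the knockout library without MNU put knockout with MNU against wild type without MNU in its place, a different comparison. At a 4-fold threshold 25 members were lower with MNU in wild type and 30 were higher in knockout than in wild type with MNU. After subtracting the share of wild type with MNU, the median MNU difference in knockout was -0.0042, the median difference of knockout from wild type without MNU was 0.33, with 1 member at least 2-fold higher in place of 0, and the median gap between the genotypes' MNU changes was 1.71. With the longer ISRE in place of the core the median over genes with the motif was -1.70, against -0.05. Pseudocounts of 2.5 and 40, the filters and both other scalings moved none of these results beyond those bounds. Scaling factors lay between 0.987 and 1.02. Whether depth limited detection of the members was not tested, because whole reads could not be recovered in all columns. That question bears most on members that fell under 100 in wild type with MNU.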

Other observations

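A few induced genes departed from their neighbours or relatives in ways that involve genotype as well as MNU. Trim30d, a tripartite-motif gene, was at 957 and 130.0 in wild type (without, then with MNU) and at 675 and 307 in the knockout, so that knockout with MNU was 3.11-fold below wild type without MNU. Its relative Trim30a was at 2957, 373, 2875 and 3503 in the same order, with both knockout libraries near wild type without MNU. Trim34a followed Trim30d in direction, at 1193, 203, 934 and 789. These genes were chosen after their values were seen, and their sequences are related.

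Mnda, a p200 gene outside the symbol rule, behaved as Ifi205 did and not as Ifi203 did. It was at 981, 1019.7, 1276 and 1179.8 in the same library order, and Mndal was 3.25-fold lower with MNU in wild type. Usp18, Slfn8 and Tap2 were the induced genes outside the rule with the highest values in wild type with MNU relative to without, at 1.66-fold, 1.78-fold and 1.52-fold, all within 2-fold.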
